A study of Mus musculus with 12 samples.

Results

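Mcl1, Bad, Cycs and Casp9 are genes of the mitochondrial route of apoptosis, and their transcripts were followed here in mouse MC3T3-E1 cells under fluid shear. The members were all probes of the array whose single gene symbol in the platform annotation is 1 of these 4, which gave 9 probes of 28704: 4 of Mcl1, 2 of Bad, 1 of Cycs and 2 of Casp9. A value in all 12 samples was present for 7 of them. Probe 15465 of Mcl1 and probe 23967 of Casp9 had a value in no sample, as did 3206 probes of the whole array. The genes were picked by their shear minus control differences in these same samples, so those differences are given as a description with their standard errors. No p-value is given for them, and a count of how many pass a threshold over all probes supports nothing about them.

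The MC3T3-E1 line was cloned from mouse calvaria and resembles osteoblasts, so the data describe 1 line. The shear group held 6 samples of confluent monolayers on glass slides, exposed in a parallel plate chamber to pulsatile flow at an average of 5 dyn/cm2 and 1 Hz for 5 h. The control group held 6 samples kept static in the same apparatus. All cells were grown in alpha-MEM with 5% fetal bovine serum, and the flow circuit held medium with 1% serum. The labels do not say that samples came from separate cultures, so the spread between them may be technical. In total 6 arrays of 2 colours were used, each with 2 samples of 1 condition. The labels do not state which samples share an array. Pairing replicate 1 with 2, 3 with 4 and 5 with 6 was inferred from the dyes, replicate numbers, design text and sample correlations. A value is the log2 of a spot's net fluorescence over the median of its block of 598 spots in that sample, so a value of 0 is the block median and levels of different probes are not comparable.

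In healthy cells cytochrome c, the product of Cycs, carries electrons between complexes of the respiratory chain in the space between the mitochondrial membranes. Proteins of the BCL2 family decide whether the outer membrane becomes leaky: MCL1 is a short-lived member that keeps it closed, and BAD is a member with a BH3 region that binds and neutralises other protective members, unless it is phosphorylated and held by adaptor proteins of the YWHA family. Once released, cytochrome c joins APAF1 in the apoptosome, where the initiator caspase encoded by Casp9 is activated. Each of these steps is controlled mainly on proteins, which these arrays do not measure.

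All 3 measured probes of Mcl1 and the probe of Cycs were higher in shear than in control samples, by 2.03- to 2.48-fold. The probes of Bad went in opposite directions. The probe of Casp9 was lower in shear on average, with overlapping groups. In these bulk samples fewer cells of a type and less RNA per cell cannot be told apart. In 5 of the 7 probes the lowest shear sample lay above the highest control sample, and in the other 2 the groups overlapped. Over all 21883 probes tested, 6.26% were separated in that direction and 1.68% in the other. With limma and Benjamini-Hochberg adjustment over all probes, 2 of the 7 passed an adjusted p of 0.05, Cycs and Mcl1 probe 1823. Of all probes 1.62% passed, and 1.42% passed as higher. Leaving out any 1 sample or array took the 2 to 0 or 1. Because this contrast chose the genes, nothing is read from these counts.

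**Figure D1:**
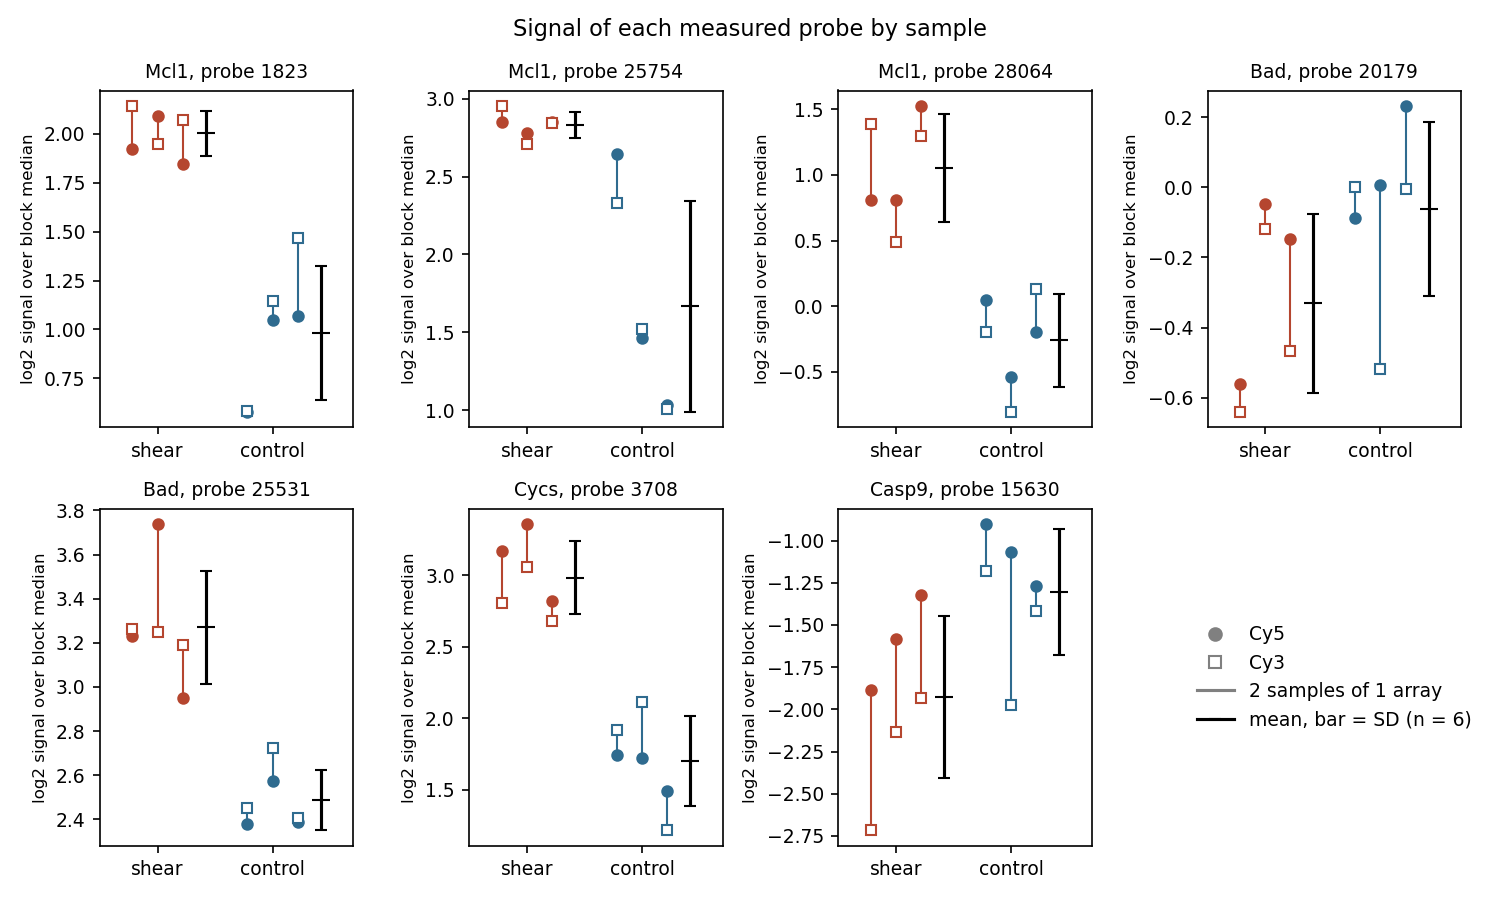
Log2 signal over the block median (vertical axis) of each of the 7 measured probes, by group. Each point is 1 sample, filled for Cy5 and open for Cy3, lines join the 2 samples of an array, and black bars give mean and SD (n = 6). The groups are apart for the Mcl1 probes, Bad probe 25531 and Cycs, and overlap for Bad probe 20179 and Casp9.

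The stretches of genome before the start sites of Mcl1 and Cycs are shown first, because these are the genes whose measured probes were all higher. They are the 250 bases upstream of the start that RefSeq gives in build GRCm38.p6, at chr3:95658471-95658720 on the plus strand for Mcl1 and chr6:50566570-50566819 on the minus strand for Cycs. Both run 5′ to 3′ and end at the base before the start, and capitals mark matches to the motifs named in the next paragraph.
Mcl1: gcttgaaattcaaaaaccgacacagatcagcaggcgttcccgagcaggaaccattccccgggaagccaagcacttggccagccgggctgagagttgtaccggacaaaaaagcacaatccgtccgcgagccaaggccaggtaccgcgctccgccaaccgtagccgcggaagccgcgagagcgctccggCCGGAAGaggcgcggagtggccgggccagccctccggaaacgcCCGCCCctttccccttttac
Cycs: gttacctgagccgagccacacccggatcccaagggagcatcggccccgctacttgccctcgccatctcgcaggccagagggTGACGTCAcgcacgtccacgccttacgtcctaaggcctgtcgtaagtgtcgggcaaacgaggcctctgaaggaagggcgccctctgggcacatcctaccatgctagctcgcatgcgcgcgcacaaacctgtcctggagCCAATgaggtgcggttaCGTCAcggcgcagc

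In these 250 bases and in those of Bad and Casp9, 10 motifs were searched on both strands. The full cyclic AMP response element, TGACGTCA, was present once, in the Cycs stretch, starting at position -169 from the start site, and 1.55% of 32851 RefSeq stretches of that length hold it. Its shorter form, TGACG, matched 3 times in Cycs, 2 of these on either strand within the full element, and not in the other 3 genes; 17.8% of all stretches hold it. Mcl1 held 1 ETS site, CCGGAAG (6.91% of all stretches), and 1 GC box, GGGCGG (32.7%). Casp9 held 4 GC boxes. Bad has 2 annotated starts, and the stretch before the first held 3 GC boxes. A CCAAT box, CCAAT (33.9%), was found in Cycs and before the second start of Bad. None of these stretches held the letters of an AP-1 site, TGANTCA (6.75%), an E-box, CACGTG (6.02%), a TATA box, TATAAA (12.4%), or a CArG box (1.47%). For NRF1 only 1 fixed pattern of letters was searched, which 4.98% of all stretches hold, and none of these stretches held it. A site that departs from that pattern by 1 base is missed, so whether Cycs or the other genes hold an NRF1 site was not tested. A match is a description of letters, and no binding was measured here. The GC content was 64.4% for Mcl1, 64% for Cycs, 62.8% and 64.8% before the starts of Bad and 66% for Casp9, against a median of 52.4% over all stretches, so it did not set Mcl1 and Cycs apart from the others.

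Mcl1 is the guard of the outer membrane among the members, and its transcript was described by 3 probes. Probe 1823 had log2 values of 1.92, 2.14, 2.09, 1.95, 1.85 and 2.07 in shear replicates 1 to 6, against 0.58, 0.58, 1.05, 1.15, 1.07 and 1.47 in control replicates 1 to 6. The shear samples lay close together and all above the controls, with 0.38 between the lowest of the one and the highest of the other. The mean was 2.0 ± 0.12 in shear and 0.98 ± 0.34 in control samples (SD, n = 6 each), a difference of 1.02 ± 0.24 (SE), or 2.03-fold higher. Its net fluorescence was 654 to 2620 in shear and 333 to 1013 in control samples.

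Probe 25754 of Mcl1 had log2 values of 2.85, 2.95, 2.78, 2.71, 2.85 and 2.84 in shear replicates 1 to 6, against 2.64, 2.33, 1.46, 1.52, 1.03 and 1.01 in control replicates 1 to 6. The groups just missed each other, by 0.07, because control replicates 1 and 2, which share an array, were nearly as high as the shear samples. The means were 2.83 ± 0.08 in shear and 1.67 ± 0.68 in control samples (SD, n = 6 each), a difference of 1.16 ± 0.31 (SE), or 2.24-fold. Without the array of control replicates 1 and 2 the difference was 1.57, and without that of control replicates 5 and 6 it was 0.84.

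Probe 28064 of Mcl1 had log2 values of 0.81, 1.39, 0.81, 0.49, 1.53 and 1.30 in shear replicates 1 to 6, against 0.04, -0.19, -0.54, -0.80, -0.19 and 0.13 in control replicates 1 to 6. Here too every shear sample lay above every control sample. The mean was 1.05 ± 0.41 in shear and -0.26 ± 0.35 in control samples (SD, n = 6 each). The difference was 1.31 ± 0.33 (SE), or 2.48-fold, the largest of the 3. Net fluorescence was 450 to 2409 in shear and 118 to 496 in control samples, or 9.0 to 17.7 and 1.87 to 5.91 times the 5th percentile of the same samples.

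The 3 Mcl1 probes thus gave differences within 0.29 of one another on the log2 scale. Among 1005 named genes with exactly 3 measured probes, the median of that range was 0.51, and 23.3% had a range no larger than that of Mcl1. All 3 probes had the same sign in 50.0% of those genes, and all 3 were at least 1 higher in 11 of them, Mcl1 included. Mcl1 was picked by this difference, so nothing is read from its place among them. Agreement in the difference did not extend to the samples within a group. After each group's mean was taken off, probes 1823 and 25754 correlated at -0.85 over the 12 samples, which lie on 6 arrays. The array means show this in the controls: probe 1823 gave 0.58, 1.10 and 1.27 for control replicates 1 and 2, 3 and 4, and 5 and 6, while probe 25754 gave 2.49, 1.49 and 1.02. In shear samples probe 25754 exceeded probe 1823 by 0.69 to 1.00, and in control samples the gap ran from -0.46 to 2.06.

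Cycs, which encodes the somatic cytochrome c, had 1 probe, 3708. Its log2 values were 3.17, 2.81, 3.36, 3.06, 2.82 and 2.68 in shear replicates 1 to 6, against 1.74, 1.92, 1.72, 2.11, 1.5 and 1.22 in control replicates 1 to 6. Of the members it had the widest gap between groups, 0.57 between the lowest shear and the highest control sample. The mean was 2.98 ± 0.26 in shear and 1.7 ± 0.31 in control samples (SD, n = 6 each), a difference of 1.28 ± 0.28 (SE), or 2.43-fold. Net fluorescence was 1296 to 6603 in shear and 756 to 2054 in control samples, at least 11.1 times the 5th percentile of the sample. By array the means were 2.99, 3.21 and 2.75 in shear and 1.83, 1.92 and 1.36 in control. Of all probes tested, 98.0% had a lower difference, but Cycs was picked by that difference, so nothing is read from this rank. The gene table lists 4 pseudogenes of Cycs, and no second probe was there to tell its transcripts from theirs.

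**Figure D2:**
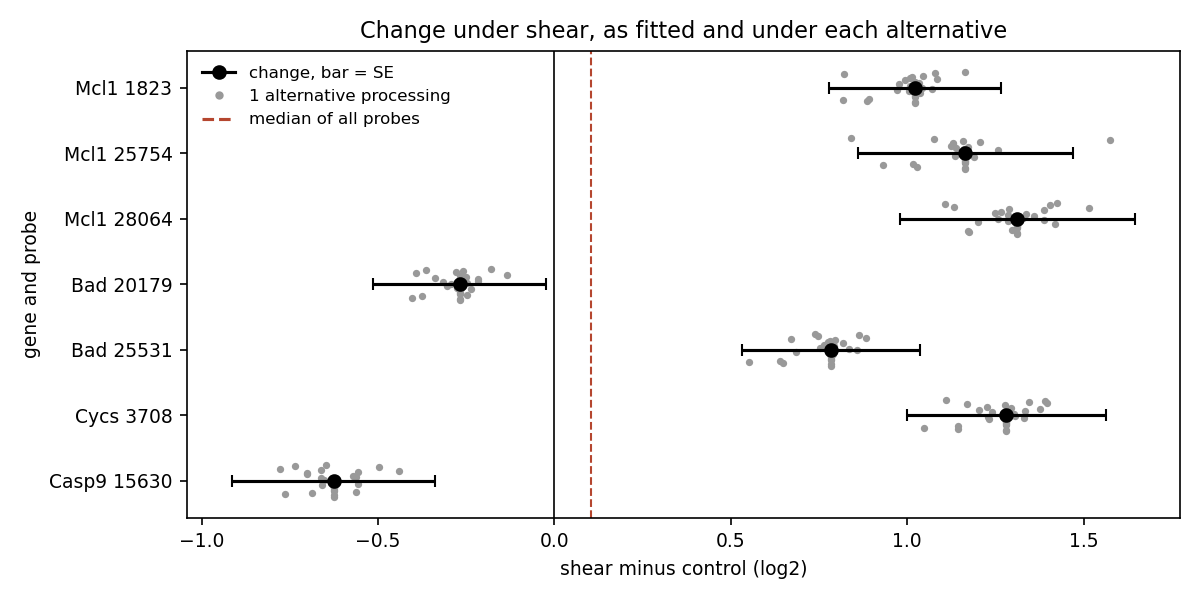
Shear minus control difference (log2, horizontal axis) of each measured probe. Black points with bars are the fitted difference and its SE, grey points the same difference under each alternative processing, and the dashed line is the median of all probes, 0.10. No probe changed sign in any alternative, and Bad is the gene with a probe on each side of 0.

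Bad, whose protein promotes death when it is free of YWHA adaptors, was the member on which the probes disagreed. Probe 25531 had log2 values of 3.23, 3.26, 3.74, 3.25, 2.95 and 3.19 in shear replicates 1 to 6, against 2.38, 2.45, 2.57, 2.72, 2.39 and 2.41 in control replicates 1 to 6. Every shear sample lay above every control sample, by 0.23 at the closest. The mean was 3.27 ± 0.26 in shear and 2.49 ± 0.14 in control samples (SD, n = 6 each), a difference of 0.78 ± 0.25 (SE), or 1.72-fold. With cyclic loess scaling it was 0.55.

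Probe 20179 of Bad had log2 values of -0.56, -0.64, -0.05, -0.12, -0.15 and -0.47 in shear replicates 1 to 6, against -0.09, 0.00, 0.01, -0.52, 0.23 and 0.00 in control replicates 1 to 6. The groups overlapped: control replicates 1 and 4 lay within the shear range, and shear replicates 3 to 6 within the control range. The mean was -0.33 ± 0.26 in shear and -0.06 ± 0.25 in control samples (SD, n = 6 each), a difference of -0.27 ± 0.25 (SE), and of -0.13 without the array of shear replicates 1 and 2.

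Within single samples, probe 25531 exceeded probe 20179 by 3.79, 3.90, 3.79, 3.37, 3.10 and 3.66 in shear replicates 1 to 6, against 2.47, 2.45, 2.57, 3.24, 2.16 and 2.41 in control replicates 1 to 6. Control replicate 4 and shear replicate 5 were the samples whose gap fell in the range of the other group. The difference between the probes' changes was 1.05, against a median of 0.31 over 2544 named genes with exactly 2 measured probes. Of those genes 7.0% had a gap at least as large, and 35.5% had probes of opposite sign. Bad was picked by its shear minus control difference, so nothing is read from its place among them. In the gene table Gpr137 and Gm19053 overlap Bad. The array also carries probes of Gpr137, and its probes 5898 and 16383 gave 0.21 ± 0.22 and -0.83 ± 0.32 (SE). Whether either probe of Bad also detects a neighbour was not tested.

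**Figure D3:**
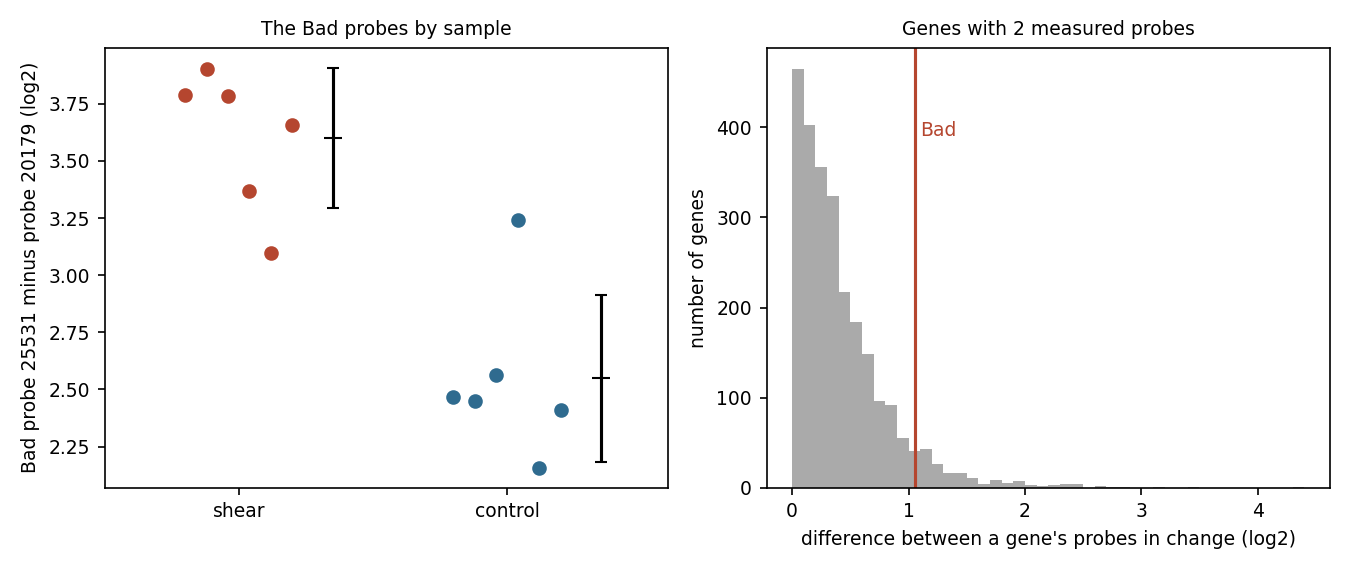
Left, the log2 signal of Bad probe 25531 minus that of probe 20179 in each sample, with mean and SD (n = 6). Right, the number of genes by the gap in shear minus control difference (log2) between the 2 probes of a gene, with Bad marked at 1.05. The gap between the Bad probes was wider in shear samples on average, with control replicate 4 and shear replicate 5 overlapping. Bad was picked by its shear minus control difference, so nothing is read from its place among genes with 2 measured probes.

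Casp9 encodes the initiator caspase of the pathway, and 1 of its probes, 15630, was measured. Its log2 values were -1.88, -2.72, -1.58, -2.13, -1.32 and -1.93 in shear replicates 1 to 6, against -0.90, -1.18, -1.07, -1.98, -1.27 and -1.42 in control replicates 1 to 6. The groups overlapped: shear replicates 1, 3, 5 and 6 lay inside the control range, and control replicates 4 and 6 inside the shear range. The mean was -1.93 ± 0.48 in shear and -1.30 ± 0.37 in control samples (SD, n = 6 each), a difference of -0.63 ± 0.29 (SE), or 1.54-fold lower. The spot was dim, at 47 to 339 units of net fluorescence in shear and 79 to 395 in control samples. That is 0.94 to 3.32 and 1.25 to 4.70 times the 5th percentile of the same samples. A signal so near the lowest measured ones limits what can be said of its size. Cela2a overlaps Casp9 in the gene table and has no probe with a single symbol on the array.

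The median difference over all probes was 0.10, and it turned to -0.02 when samples were centred on probes measured in all of them. Relative to that median of 0.10, the differences were 0.92, 1.06 and 1.21 for Mcl1 probes 1823, 25754 and 28064 and 1.18 for Cycs. They were 0.68 and -0.37 for Bad probes 25531 and 20179, and -0.73 for Casp9. The signs of all 7 held under every scaling tried.

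A measure that played no part in choosing the genes is the dye. Each array carried 1 sample in Cy5 and 1 in Cy3 of the same condition, so the difference between the dyes could be tested in the same fit. Casp9 was the 1 member probe of 7 that passed, with a Cy5 signal 0.55 ± 0.11 (SE) above the Cy3 signal and adjusted p = 0.02015 (limma, Benjamini-Hochberg over 21883 probes). Of all probes 10.8% passed for the dye. The Cy5 sample was higher on 6 of 6 arrays, by 0.83, 0.55 and 0.61 on the shear arrays and by 0.28, 0.91 and 0.15 on the control arrays. Over 25 alternatives adjusted p ran from 0.0167 to 0.716. It missed the threshold in 7: without shear replicate 3 or 4, without any shear array or that of control replicates 5 and 6, and with no array block. The dye difference of Casp9 was thus close in size to its difference between groups, while both dyes were used equally in each group. For the other 6 probes the dye differences were between -0.13 (Mcl1 probe 1823) and 0.19 (Bad probe 20179), and the median over all probes was 0.14.

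**Figure D4:**
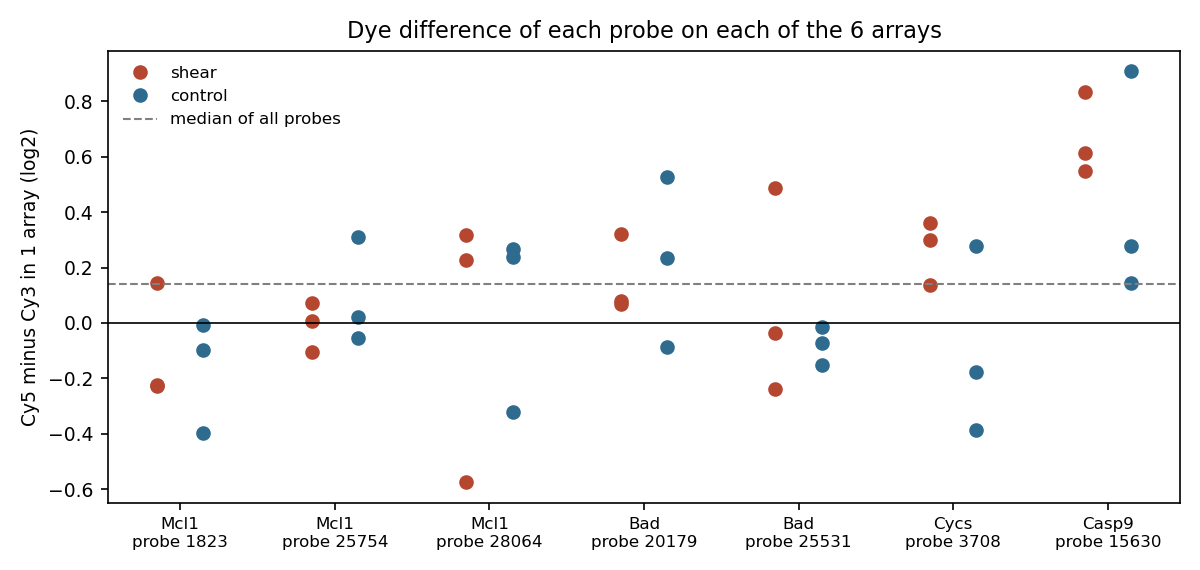
Cy5 minus Cy3 log2 difference (vertical axis) of each measured probe on each of the 6 arrays, shear arrays left of control arrays, with the median of all probes dashed at 0.14. The points of Casp9 are above 0 on every array, while those of the other probes fall on both sides.

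The rest of the pathway was described with 10 lists of genes by role. They held 99 genes, of which 67 had a probe on the array and 63 were tested, with 128 probes. At least 1 probe passed for 2 of the 63 genes, both higher in shear, and none passed as lower. Over all 8928 named genes tested, 2.55% had at least 1 probe that passed, so the share in the lists was close to the background. The median change of the 128 probes was 0.12, near that of all probes.

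Both genes that rose encode adaptors of the YWHA and SFN family, which bind phosphorylated partners, BAD among them. Ywhag probe 13148 had log2 values of 3.17, 2.55, 2.78, 2.74, 3.10 and 2.64 in shear replicates 1 to 6, against 1.28, 1.48, 0.58, 0.31, 0.98 and 0.96 in control replicates 1 to 6. The groups were far apart, and the change was 1.90 ± 0.30 (SE, n = 6 each), or 3.72-fold, with adjusted p = 0.00565 (limma, Benjamini-Hochberg). This probe passed in the 27 alternatives that tested it, with adjusted p from 1.36e-04 to 0.0413. In the remaining alternative, with 1 probe per gene, another probe stood for Ywhag, and 0 genes of the lists passed. Its other probes, 17932, 2293 and 20786, had changes of 1.45, 1.04 and 0.73 that did not pass, and probe 17932 had a value in 4 control samples.

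Sfn, the sigma form known from epithelial cells, had log2 values of 0.78, 0.50, 0.89, 0.70, 0.14 and 0.25 for probe 6160 in shear replicates 1 to 6, against -0.48, -0.49, -1.04, -1.44, -0.84 and -0.63 in control replicates 1 to 6. No control sample reached the lowest shear sample. The change was 1.36 ± 0.28 (SE, n = 6 each), or 2.57-fold, with adjusted p = 0.0255 (limma, Benjamini-Hochberg). Over 27 alternatives adjusted p ran from 0.00117 to 0.155. With 1 probe per gene this probe was not used and the call was lost. Among the 27 it missed the threshold in 8: without shear replicate 1, without any array other than that of control replicates 1 and 2, with each array averaged and with the replicate block. The other probe of Sfn, 4898, gave 0.94 ± 0.27 and did not pass.

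In the same list of 11 tested genes acting on BAD, the phosphatase catalytic gene Ppp1ca did not pass, with 1.55 on probe 16124 (0.41 without the array of control replicates 1 and 2) but 0.29 and -0.06 on its others. Ywhab, a further adaptor of that family, had 2.15 ± 0.95 (SE) on probe 12128 and 0.37 ± 0.25 on probe 17793, neither of which passed. Probes of the kinase genes Akt1 and Akt2 and of the protein kinase A gene Prkaca lay between -0.73 and 0.07. None of the relatives of Mcl1 passed: the protective genes Bcl2l1, Bcl2 and Bcl2l10 had changes of -0.79, -0.46 and 0.59 on the probe with the smallest p, and the median of their list was -0.30. The other probes of Bcl2l1 and Bcl2l10 gave -0.30 and -0.05. Of the genes whose proteins form the pore, Bok had 0.64 and 0.78 on its probes and Bak1 0.10, and neither passed.

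The other genes with a BH3 region or related to it were 6 tested, and none passed. Bnip3l, a mitophagy receptor, had -0.81, -0.63 and 0.23 on its probes. Bcl2l13 had 0.48 and Bnip3 0.44 on the probe with the smallest p. Among the partners of cytochrome c in the apoptosome and proteins released with it, Apaf1 had -0.14 and 0.10 on its probes. Diablo, whose product blocks inhibitors of caspases, had -0.35, and Aifm1 had -2.19. The value of Aifm1 rested largely on 1 array, and was -0.76 without that of shear replicates 1 and 2. The other probes of Aifm1 gave 0.94, 0.12 and 0.03, and none of these genes passed.

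The inhibitors of apoptosis Birc3, Birc6 and Birc5 had -0.38, -0.41 and 0.12 on the probe with the smallest p. Other probes differed in sign, with -0.08 and 0.12 for Birc3 and 0.26 and -0.13 for Birc6. In the list of other caspases and adaptors, the adaptor gene Cradd had -0.71, the caspase inhibitor gene Cflar 1.03 (0.58 without control replicate 3), with -0.16 and -0.14 on its other probes, and the inflammatory caspase gene Casp4 0.89. None of these passed. Of 6 tested genes of MCL1 turnover none passed, with Cul3, a scaffold of ubiquitin ligases, at 0.82, 0.48 and 0.48, Btrc at -0.45 and Tpt1, which binds MCL1, at 0.44.

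None of 11 tested genes passed in the list headed outer membrane channels and membrane dynamics. That list also held Slc25a5 and Ppif, whose proteins are not of the outer membrane. The adenine nucleotide carrier gene Slc25a5 had -1.53 and 0.71 on its probes, the cyclophilin gene Ppif 1.00 and the mitofusin gene Mfn1 0.49. Of 11 tested genes of cytochrome c maturation and electron transfer none passed either. Hccs, which attaches heme to cytochrome c, had 0.70 ± 0.31 (SE), the complex III gene Uqcrc1 0.51, and the transcription factor gene Nrf1 0.50 on the probe with the smallest p. That probe of Uqcrc1, 172, had a value in 4 shear samples, and its probe 7701 gave 0.23. The median of that list was 0.23, and 15 of its 21 probes were above 0, against 60.0% of all probes.

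**Figure D5:**
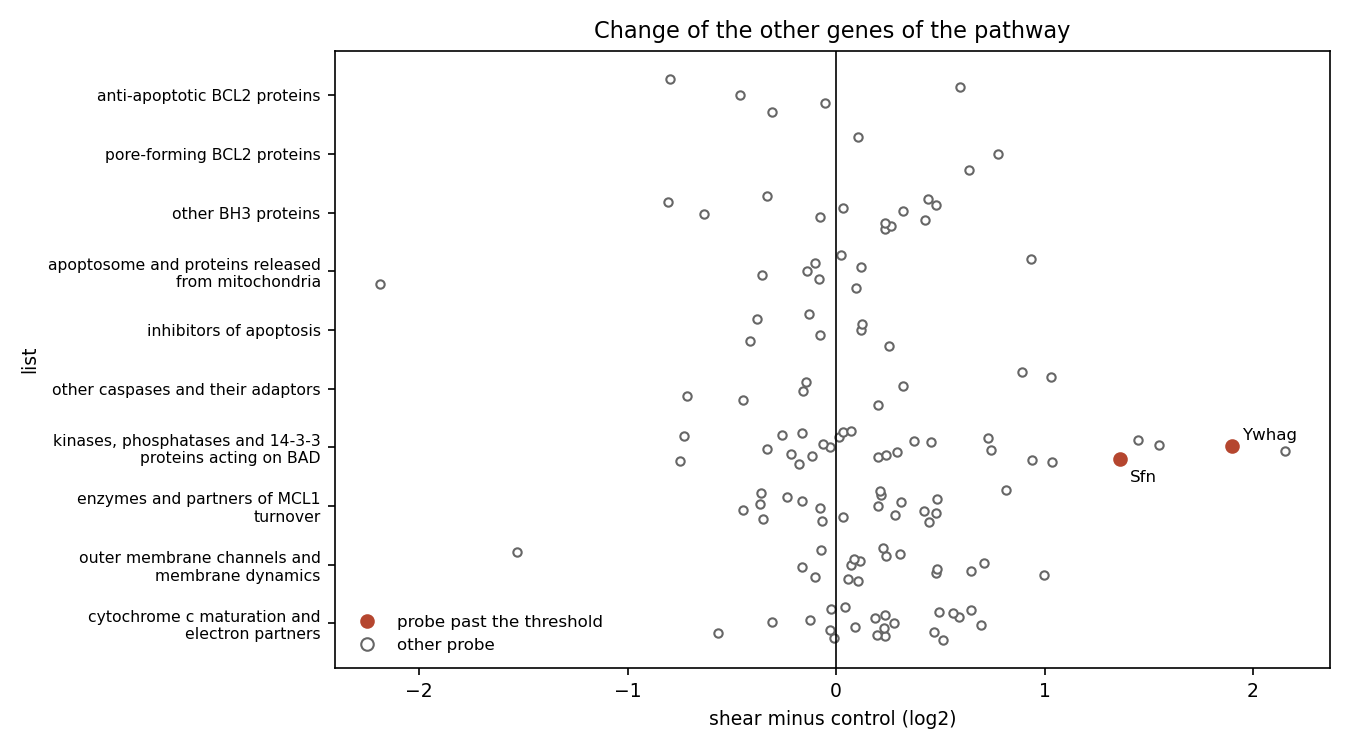
Shear minus control change (log2, horizontal axis) of the 128 tested probes of 63 other genes of the pathway, by list. Filled points passed an adjusted p of 0.05 and open points did not. Ywhag and Sfn, both in the list acting on BAD, are the genes with a filled point.

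The genes whose pattern over the 12 samples was most like that of a member were ranked by Pearson correlation among 12630 named probes with a value in every sample. These values include the difference between groups and rest on 6 arrays, and they are descriptions. For Cycs they were Ercc6l (0.98), Rras2 (0.97) and Cnbp (0.96). For Bad probe 25531 they were Abl2 (0.97), the proteasome gene Psmd6 (0.96) and Nap1l1 (0.96). For Mcl1 probe 25754 they were Cnot6, Klf10 and Map4k5 (0.95 each), and for Casp9 Shisa5 (0.97), Prr32 (0.96) and Bcl9l (0.94). Between members, Bad probe 25531 and Cycs had the highest correlation, 0.94, and 0.66 after the group means were taken off. Bad probe 20179 followed Casp9 at 0.77, and at 0.67 after the group means were taken off. Other pairs turned round in that step: Mcl1 probe 28064 had 0.69 with Cycs and 0.67 with Bad probe 25531 before it, and -0.72 and -0.63 after it.

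For markers of the labelled cell type, 6 of 13 osteoblast genes were tested: Alpl, Col1a1, Col1a2, Dlx5, Msx2 and Sparc. Their summed signal relative to the block medians was 54.6 to 240 in shear and 77.2 to 208 in control samples, so the groups overlapped. They overlapped too for 4 macrophage and osteoclast markers (5.18 to 13.1 in shear and 6.25 to 10.9 in control samples), 5 endothelial markers (6.27 to 8.72 and 5.16 to 7.63) and 3 adipocyte markers (2.30 to 4.36 and 1.96 to 3.37). Sums of different lists rest on different probes and numbers of genes and are not set against each other, so they do not check the label. Of these 18 genes, 1 passed, against 2.55% of all named genes. It was the osteoblast factor Dlx5, lower in shear at -0.97 ± 0.23 (SE). The median change of the 9 osteoblast probes was 0.0084, and 1 of them had an unadjusted p under 0.05 (limma). Runx2, Sp7 and the other markers were not among the probes tested. Between 64.2% (control 4) and 82.9% (control 1) of the spots of a sample had a value, and the median net fluorescence per sample ran from 243 (shear 5) to 868 (shear 6).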

How the data were processed

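The deposited table holds log2 values made by the authors, 1 per spot and sample. With 1 scale per block of 598 spots and sample, 576 of 576 combinations gave whole numbers within 0.02, which settles the log base. Because of this scaling a change of all transcripts at once is not visible. How the authors scanned the slides, corrected background and left spots empty was not given in the sources used here. Of the probes, 18511 had 1 symbol, 937 had several and 9256 had none, and 18267 symbols were updated through the Entrez number (GRCm38.p6 gene table).

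Pearson correlations over spots were 0.953 to 0.982 within arrays and 0.871 to 0.935 between other samples of a group. They helped to infer which samples share an array, so they do not test it. R 4.3.3 with limma 3.58.1 and the package data.table (1.17.8), and Python 3.11.15 with numpy 2.4.6, pandas 2.3.3 and matplotlib 3.10.9, were used. Each probe was a feature, tested where shear and control each had 4 or more of their 6 values. The limma fit had group and dye as fixed terms and array as a random block (correlation 0.727), with Benjamini-Hochberg adjustment over 21883 probes. Each array held 1 group, so each group rests on 3 arrays, although the degrees of freedom are those of samples, and p-values can be too small. No set test was made.

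On simulated data over 21883 probes for this comparison, 12% of 100 probes changed by 1 (log2) and 82% of 100 changed by 2 were recovered, and 5 of 99 calls were false. The simulated noise was normal, with the same array correlation for all probes and no dye effect. That is close to what the fit assumes, so the share of false calls in the real data is not known from it. The number of arrays limits the precision.

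Members, lists and tests were chosen with earlier results of these data known. Named were all member probes, genes of each list with a probe past the threshold and its 3 with the smallest p, and the 3 genes most like each member in pattern. Genes outside that rule (Akt1, Akt2, Prkaca, Ywhab, Gpr137 and the markers) were named after their values were seen. Alternatives covered the filter, scaling, array block, dye, probes per gene, replicate block, and leaving out samples or arrays.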

Additional observations from a re-analysis of the deposited data

Results flagged for a closer look

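In 148 groups of samples, those of the 7 measured member probes and of the probes of the pathway genes that the naming rule picked, 6 held 1 sample far from the rest by the gap to its nearest neighbour over the whole range of the group. For independent samples chance gives about 1 in 20, and samples of an array are not independent. None of the 6 concerned Mcl1, Bad, Cycs or Casp9. Aifm1 probe 21392 was lowest in control replicate 3, at -2.37, with -0.16 as the next value (ratio 0.880), and Cflar probe 22010 was lowest in the same sample, at -2.68 against -1.47 (ratio 0.733). Uqcrc1 probe 172, with a value in 4 shear samples, was lowest in shear replicate 2, at 1.39 against 1.68 (ratio 0.897). Bnip3l probe 244 was lowest in shear replicate 1, at 0.89 against 1.30 (ratio 0.691), and in control replicate 4, at 0.61 against 1.05 (ratio 0.632). Bcl2l13 probe 14417 was highest in control replicate 5, at -1.60 against -1.88 (ratio 0.769).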

How the results depend on the processing

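The differences of the 7 member probes kept their sign in all alternatives, 28 for those that represent their gene and 27 for the others, and moved by more than the SD of replicates once, for Bad probe 25531 at 0.55 with cyclic loess. Of the 7, the number past an adjusted p of 0.05 was 2 and fell to 0 with centring on probes measured in all samples, cyclic loess, quantile normalization, each array averaged or the replicate block, and without the array of shear replicates 1 and 2, 3 and 4, or 5 and 6 or of control replicates 5 and 6 (limma; 5 to 6 at an unadjusted p under 0.05). It was 1 with at least 2 values per group or 1 probe per gene. It was also 1 without the array of control replicates 1 and 2 or 3 and 4. It was 4 with no dye term, 6 with no array block, and 0 to 1 with a replicate left out. In the main fit 3196 of all 21883 probes had an unadjusted p under 0.05 (limma), beside 6 of the 7 member probes. The shear minus control contrast chose the genes, so nothing is read from these counts of member probes.

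Over all probes 354 passed, 310 higher and 44 lower, or 87.6% higher. The count was 235 with quantile normalization, 2664 with no array block, 106 with each array averaged, 558 with no dye term, 232 with 1 probe per gene and 180 to 368 with a replicate left out. Without the array of shear replicates 1 and 2, 3 and 4, or 5 and 6 it was 210, 75 and 108, and without that of control replicates 1 and 2, 3 and 4, or 5 and 6 it was 194, 234 and 143. The share higher was 67.5% with centring on probes measured in all samples, 70.0% with cyclic loess, 74.0% with no array block and 71.4% without control replicates 3 and 4. With the replicate block 163 passed. Deviations of same-numbered samples from their group means correlated at -0.09 to 0.12, and at -0.16 to 0.09 within dyes. This gives no sign of pairing by number, but weak correlations cannot show that the samples were not paired.

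For the dye 2359 passed, 79.4% of them higher in Cy5, a share that was 22.1% with centring on probes measured in all samples and 26.3% with cyclic loess. The count was 834 with centring on probes measured in all samples, 906 with cyclic loess, 1500 with quantile normalization, 0 with no array block (limma; 1404 at an unadjusted p under 0.05) and 101 to 2182 with a replicate left out. Without the shear arrays in turn it was 280, 48 and 334, and without the control arrays 1016, 1081 and 77.

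Of the pathway lists 2 genes passed. This was 9 with no array block, 1 with each array averaged, 0 with 1 probe per gene (9 at an unadjusted p under 0.05), 1 with the replicate block, where Sfn was lost, and 1 to 2 with a replicate left out. It was 1 without any of the 3 shear arrays, or without control replicates 3 and 4 or 5 and 6. Of the 9, 7 had a probe that passed as higher and 3 had 1 that passed as lower. With no array block 2664 of all 21883 probes passed. With 1 probe per gene 2156 of 15601 had an unadjusted p under 0.05 (limma). The genes Bcl2l10, Bak1 and Birc5, which did not pass, changed sign: Bcl2l10 (-0.2739 and -0.0267 without the array of shear replicates 1 and 2 or control replicates 3 and 4), Bak1 (-0.0329 with centring, -0.0457 with cyclic loess, -0.0537 and -0.0061 without shear replicates 3 and 4 or control replicates 3 and 4) and Birc5 (-0.0176 with centring, -0.038 with cyclic loess, -0.0173 without shear replicates 5 and 6, -0.17 without control replicates 1 and 2, -0.037 to 0.28 with a replicate left out). The cause of these shifts was not tested.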
